A study of Mus musculus with 33 samples.

Results

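The genes described here are those for the proteins of the cytosolic ribosome in mouse liver. They were chosen by name, as the rows of the deposited normalized table called Rpl or Rps with a number, Rplp0, Rplp1, Rplp2 or Rpsa, without the Rps6k kinases and without names marked as pseudogenes. The rule gave 42 of 11125 rows, 24 of the large subunit (Rpl) and 18 of the small subunit (Rps), under 38 distinct names. Of these, 39 passed the filter on low counts and were tested among 10179 genes, and 3, Rps26-ps1 among them, did not. The rule used names and no difference between groups, but it required a row in the normalized table, and ribosomal protein genes without one were at low levels.

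RNA came from whole livers of male C57BL/6J mice, whose age is 13 to 18 weeks in the labels and, in the methods of the study, is that at virus injection. The 33 libraries, s1 to s33 in the labels, fell into 4 groups. WT (shSCR/L-G6pc+/+, 8 libraries) and G6PC (shSCR/L-G6pc-/-, 8 libraries) received an adeno-associated virus with a scrambled short hairpin RNA, whereas WTp (shChREBP/L-G6pc+/+, 8 libraries) and G6PCp (shChREBP/L-G6pc-/-, 9 libraries) received one against ChREBP, the carbohydrate-sensing transcription factor encoded by Mlxipl. All mice carried floxed G6pc, which encodes the enzyme subunit that frees glucose from glucose-6-phosphate, and all were given tamoxifen on 5 consecutive days. Only L-G6pc-/- mice also carried the tamoxifen-inducible Cre under Alb, so that the deletion was made in hepatocytes, and livers were taken 10 days after the last injection. Nothing in the labels ties each library to its own mouse, so n counts libraries and p-values measure only the spread between them, which may be technical. The study asked what lowering ChREBP does to a liver that lacks glucose-6-phosphatase, and the ribosomal protein genes were read here in the same comparisons.

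A cytosolic ribosome consists of a small subunit, which reads the messenger RNA, and a large subunit, which joins the amino acids, and each is built from ribosomal RNA and a set of proteins, most of them present as a single copy. In hepatocytes these ribosomes make the secreted plasma proteins as well as the enzymes of the cell. Messenger RNAs of ribosomal proteins typically begin with a C followed by a run of C and T bases, the 5′ terminal oligopyrimidine or TOP tract, through which mTORC1 adjusts their translation. Because much of this control acts on translation, the amount of these messages need not follow their use. Mammalian genomes hold many processed copies of ribosomal protein genes, and such copies share most of their sequence with the gene they came from.

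The start of the gene shows the TOP tract, and the starts below are shown because they belong to the members whose values are described most closely. Each line gives 10 bases before and 20 bases from the RefSeq start, on the strand of the gene, with the build GRCm38.p6. Capitals mark a tract of a C followed by at least 4 C or T bases that begins within 5 bases of the start. Only the strand of the gene was searched. The first 3 genes held such a tract and the last 3 did not.
Rps10, chr17:27635225-27635254, minus strand: gcgcacgCCCCTTCCTTTCCagcctccgcc
Rpl13a, chr7:45128726-45128755, minus strand: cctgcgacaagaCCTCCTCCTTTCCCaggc
Rps27l, chr9:66946076-66946105, plus strand: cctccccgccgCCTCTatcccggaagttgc
Rpl4, chr9:64173377-64173406, plus strand: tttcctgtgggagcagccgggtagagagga
Rpsa, chr9:120127756-120127785, plus strand: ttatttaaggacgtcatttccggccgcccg
Rplp0, chr5:115559457-115559486, plus strand: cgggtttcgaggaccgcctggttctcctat

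Annotated names of ribosomal protein genes were carried by 38 members, among them Rps4l, a transcribed processed pseudogene in GENCODE M21. Of these 38, 29 had a start in the RefSeq table, and 16 of the 29 (55.2%) held a tract. The share was 21.2% of all 27025 genes of the table and 24.6% of 69 mitochondrial ribosomal protein genes, which serve another ribosome. Counted from a first base within 5 bases of the start, the longest tracts of the members had 16 bases in Rpl35 and 14 in Rpl13a. These were much longer than the 5 bases of Rps27l, Rpl19 and Rpl39. The run in Rpl35 began further upstream, so its length given here is a minimum. A start without the tract says only that these letters were not in the window around the annotated base.

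The remaining 4 members lie at other loci that the deposited table names after a ribosomal protein gene. Gm10275, a processed pseudogene on chromosome 10, is listed as Rpl12. Gm2000 on chromosome 1 is listed as Rpl35, Gm10076 on chromosome 14 as Rpl41, and Rps26-ps1 on chromosome 8 as Rps26. Their sequences are shown because reads of such a locus and of its namesake can be told apart only where bases differ. For the pairs below, 30 coding bases are printed from the window with the most differences when the coding sequence was laid on the other transcript without gaps, in GENCODE M21 transcripts on the strand of the gene, and capitals mark the bases that differ.
Rpl35, chr2:39001580-39005624, minus strand: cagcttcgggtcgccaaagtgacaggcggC
Gm2000, chr1:156366040-156366484, plus strand: cagcttcgggtcgccaaagtgacaggcggT
Rps26, chr10:128624534-128626747, minus strand: atgaccaaaaaaagaagaaacaacggtcgC
Rps26-ps1, chr8:107439131-107439579, minus strand: atgaccaaaaaaagaagaaacaacggtcgT

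Over the whole coding sequence, Gm2000 differed from Rpl35 at 1 of 369 bases and Rps26-ps1 from Rps26 at 2 of 345. Gm10275 matched all 495 coding bases of Rpl12, and Gm10076 all 75 of Rpl41. Levels are given as CPM, the counts of a gene relative to the total of its library after scaling by the TMM factors of edgeR. Gm10275 had a mean of 44.4 CPM over the 33 libraries, against 5.67 for Rpl12, and Gm2000 had 15.5 against 4.39 for Rpl35. Rps26 had 119 CPM against 2.73 for Rps26-ps1, and Rpl41 had 12.3 against 7.99 for Gm10076. The other locus thus had more reads assigned to it in 2 of the 4 pairs and the namesake gene in the other 2, and where these reads arose was not tested.

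The protocol reads 50 bases near the 3′ end of each messenger RNA, so the number of reads given to a gene depends on how much of its end is found nowhere else. A single annotated transcript was chosen for each gene. In its last 300 bases, 50-base stretches found in no other gene made up a median of 70.1% for the 42 members. Rplp0, Rpl4, Rpsa, Rps3 and Rpl13a reached 100%, Rps27l 78.1%, Rps10 32.3% and Rpl35 3.98%. Of the loci listed under another name, Gm10076 had 37.1%, Rps26-ps1 21.1%, Gm2000 3.98% and Gm10275 0.00%. Of their namesakes, Rpl41 had 37.1%, Rps26 37.45% and Rpl12 100%. Rpl12 nevertheless had a mean of 5.67 CPM, against 44.4 for Gm10275. The 15 members at 90% or more had a median of 94.0 CPM, the 7 between 50% and 90% a median of 147 CPM, the 17 between 10% and 50% one of 20.1 CPM and the 3 under 10% one of 15.5 CPM. Over all ribosomal protein genes the medians of these classes were 19.5, 119, 12.6 and 4.39 CPM, so level did not rise steadily with the unique share. Annotated ends need not be those used in liver, and the part of this share in the counts was not tested. Levels of different members were therefore not ranked.

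The 42 rows do not hold the whole ribosome. A further 27 ribosomal protein rows of the normalized table have names that join several loci, such as Rplp1, and 23 of them were tested. Another 20 ribosomal protein genes of the count table, Rpl11 among them at 0.721 CPM, had no row in the normalized table, a median of 0.801 CPM and a median unique share of 17.7%, and none passed the filter. Rpl5, which with Rpl11 binds Mdm2 when ribosome assembly is disturbed, belonged to the joined names. Its mean was 4.62 CPM with 0.00% of its 3′ end unique, and no difference between groups was called (lowest adjusted p = 0.226, for G6PCp against G6PC, with a log2 fold change of -0.54).

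**Figure D1:**
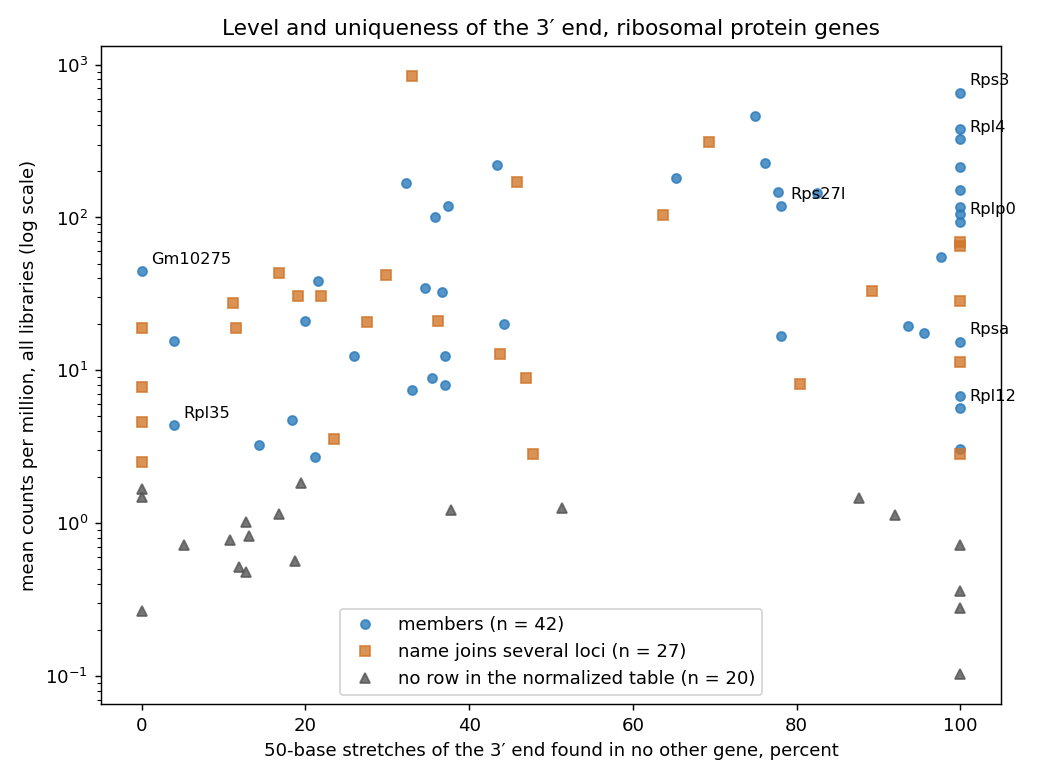
Mean level of each ribosomal protein gene over 33 libraries (CPM, log scale) against the percentage of 50-base stretches of its annotated 3′ end found in no other gene. Genes without a row in the normalized table (triangles) lie at 1.82 CPM or lower, while members (circles) range from 2.73 CPM for Rps26-ps1 to 657 CPM for Rps3.

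Library totals ran from 1497840 to 3546850 counts, and the 42 members took 0.376% to 0.476% of them. Mlxipl stood at 449 to 612 CPM in WT and 292 to 413 in WTp, without overlap, and at 514 to 633 in G6PC and 216 to 500 in G6PCp, also without overlap. G6pc reads were not lower in the L-G6pc-/- groups (158 to 752 CPM in G6PC, 78.7 to 364 in WT). The part of G6pc removed is not given in the sources used here, and a 3′ read outside it does not check the deletion. The G6PCp libraries s29, s30, s32 and s33 lay between 26.8 and 35.6 on the first principal component (14.7% of the variance), whereas the other G6PCp libraries lay between -1.47 and 7.70, and s9 and s13 were the highest of WTp at 19.8 and 21.2. Hepatocyte markers such as Alb were abundant in every library, while the 6 T and NK cell markers summed to 1.33 to 15.2 CPM (Cd3e at 0 in 21 libraries, Gzma in none) and the 4 B cell markers to 3.16 to 88.2 CPM (Cd79a at 0 in 27, Ighm in none). Fewer cells of a type and less RNA per cell cannot be told apart in bulk liver. The labels give no batch.

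The summed level of the 42 members lay between 3979 and 4821 CPM in all libraries. It ranged from 4233 to 4821 CPM in WT with a median of 4527, from 3993 to 4361 in WTp with a median of 4276, from 3979 to 4630 in G6PC with a median of 4142, and from 4215 to 4591 in G6PCp with a median of 4364. All 4 ranges overlapped, but those of WT and WTp did so only through the WT library s3, at 4233 CPM. Every other WT library was above every WTp library, and the difference in this sum was not tested. Rpl4, with a mean of 376 CPM in WT and 244 in WTp, is part of the sum. With the other ribosomal protein genes added, which the rule left out, the sums overlapped more widely. They then ran from 6086 to 7019 CPM in WT and from 5919 to 6583 in WTp. Over all 33 libraries the mean was 4345 CPM with an SD of 206.

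Rplp0 encodes the stalk protein P0, also called 36b4, which with P1 and P2 recruits the elongation factors to the large subunit. Its message was the reference of the study's quantitative PCR. Much of that quantitative PCR was on livers of other mice, taken later than the 10 days of these libraries, which the values here do not cover. In WT, Rplp0 had 67.6 CPM at the lowest, 95.9 at the median and 114 at the highest. The corresponding values were 88.1, 92.9 and 104 in WTp, 82.5, 97.8 and 104 in G6PC, and 82.9, 92.8 and 116 in G6PCp. The ranges of all groups overlapped, and the medians lay between 92.8 and 97.8 CPM. The log2 fold change was 0.04 (95% interval -0.14 to 0.23) for G6PC against WT and 0.04 (-0.15 to 0.23) for WTp against WT. It was -0.01 (-0.20 to 0.17) for G6PCp against G6PC and 0.03 (-0.15 to 0.22) for G6PCp against WT. The exact permutation test on log2 CPM gave adjusted p values of 0.838 to 0.867 for these 4 comparisons (two-sided, Benjamini-Hochberg over 12 tests of 3 genes). The intervals thus excluded a change of Rplp0 by 1.5-fold in either direction, and no difference was detectable within them. Rplp2, which encodes the stalk protein P2, had group means of 17.2 ± 3.73 (WTp, SD, n = 8) to 21.3 ± 6.97 CPM (WT, SD, n = 8), with overlapping ranges.

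**Figure D2:**
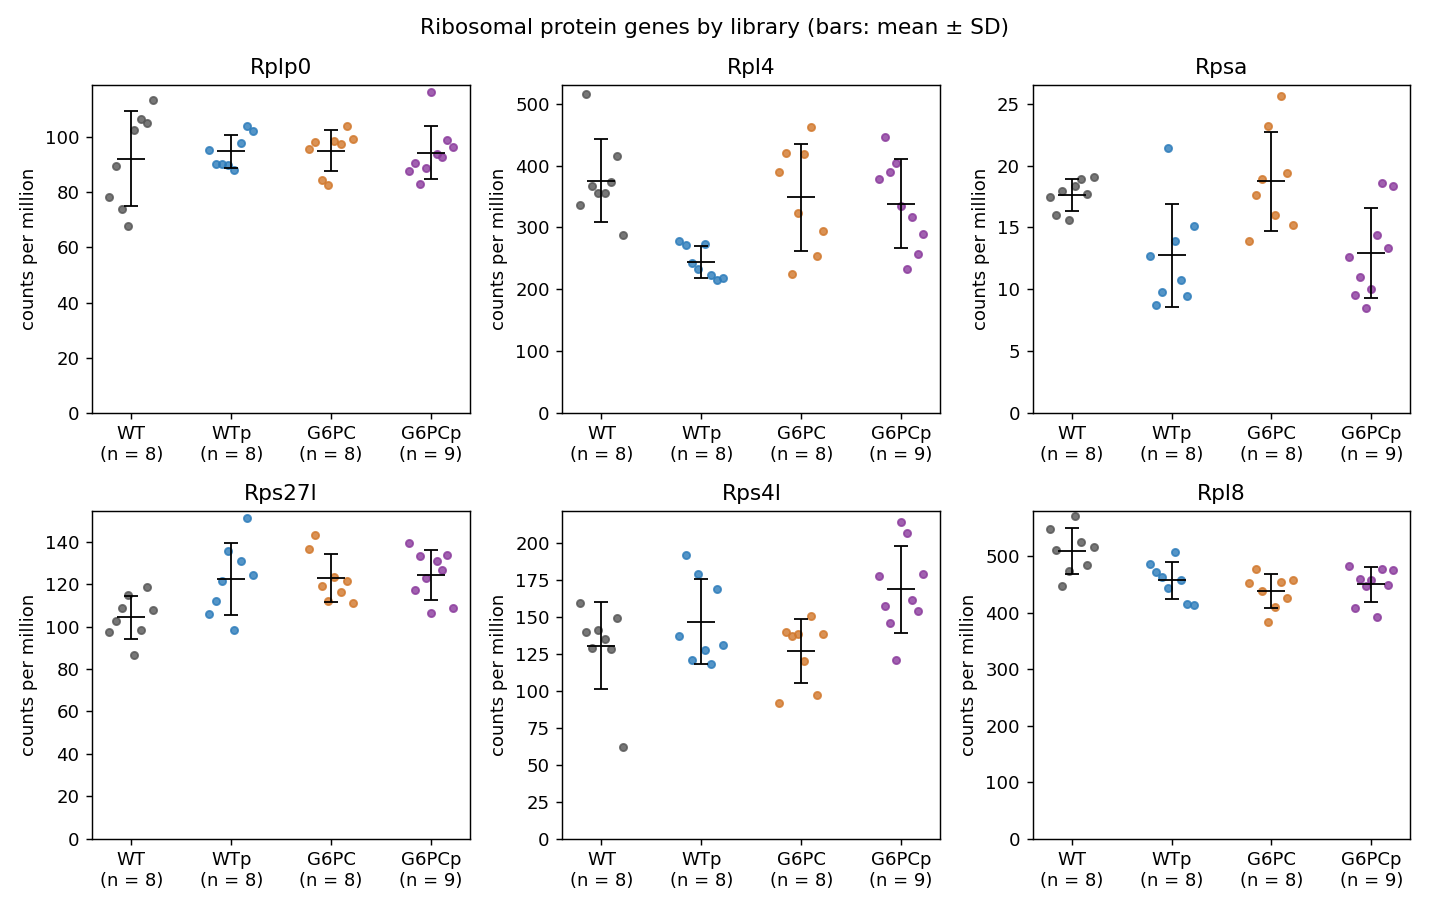
Level of 6 members in each library (CPM, linear axis from 0), by group, with a point for each library and bars for the mean and SD. All 8 WTp points of Rpl4 (214 to 278 CPM) lie below all 8 WT points (289 to 516 CPM), while the groups of Rplp0 overlap throughout.

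The question for G6PC against WT was which genes differ with hepatocyte loss of G6pc alone. No member was called in either direction by edgeR's quasi-likelihood test at an adjusted p under 0.05, while 2.2% of all 10179 tested genes were called higher and 1.03% lower. At an unadjusted p under 0.05 there were 6 of 39 members, against 14.6% of all genes. The median log2 fold change of the members was -0.09 and that of all genes 0.00, with 13 members above 0 and 26 below. DESeq2 called 2 members lower, Rpl8 and Rps10, and limma-voom called none. Shares of all genes are given for edgeR only, here and below, so calls by DESeq2 or limma-voom have no such share beside them.

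Rps10, of the small subunit, lies at the path by which messenger RNA enters. It had 155, 173 and 219 CPM (lowest, median, highest) in WT and 105, 143 and 171 in G6PC. Of 8 G6PC libraries 6 were below the lowest WT library, and the groups overlapped (log2 fold change -0.32, SE 0.10, adjusted p = 0.0763, and 0.0469 without s23). The annotated gene Rps10 overlaps a read-through gene with Nudt3 on the same strand, and their reads cannot be told apart. Rpl8, which lies near the catalytic centre of the large subunit, had 446, 513 and 571 CPM in WT and 383, 445 and 478 in G6PC (log2 fold change -0.22, SE 0.07, adjusted p = 0.0912). Here 4 of 8 G6PC libraries were below the lowest WT library.

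Rpl38, of the large subunit, had 18.6, 30.9 and 43.9 CPM in WT and 23.4, 44.7 and 62.6 in G6PC (log2 fold change 0.40, SE 0.18, adjusted p = 0.276). The libraries highest for Rpl38 were in G6PC, the groups overlapped widely, and 34.7% of its 3′ end was unique.

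The WTp against WT comparison asked what the hairpin against ChREBP does where glucose-6-phosphatase is intact. Of the 39 members, 1 was lower and none was higher, while 3.23% of all tested genes were lower and 2.16% higher. The member that fell was Rpl4, a protein of the large subunit that reaches into the tunnel through which the new chain leaves. The median log2 fold change of the members was -0.04 (all genes 0.03), 7 of 39 members had an unadjusted p under 0.05 against 21.5% of all genes, and neither DESeq2 nor limma-voom called a member higher. DESeq2 called Rps9 lower as well as Rpl4, and limma-voom called Rpl4 alone.

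Rpl4 had 289, 361 and 516 CPM in WT (mean 376 ± 66.9, SD, n = 8) and 214, 237 and 278 in WTp (mean 244 ± 26.5, SD, n = 8). Every WTp library was below every WT library, which held for 1 of 39 members and 0.865% of all tested genes. In the other comparisons of groups no member had groups without overlap, against 0.756% of all genes in G6PC against WT, 0.707% in G6PCp against G6PC and 1.67% in G6PCp against WT. The log2 fold change was -0.62 (SE 0.14, 95% interval -0.90 to -0.34, adjusted p = 0.0068), or 0.649 of the WT level. The call stood under each of the 11 other settings and without each of the 33 libraries in turn, with log2 fold changes from -0.69 to -0.54. All of the annotated 3′ end of Rpl4 is unique among GENCODE M21 transcripts. The gene holds snoRNA genes on its own strand, whose reads, where they overlap it, would be counted with it or set aside, and this was not tested.

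In L-G6pc-/- livers Rpl4 was not called. It had 225, 356 and 462 CPM in G6PC and 233, 334 and 446 in G6PCp, over nearly the same range (log2 fold change -0.04, SE 0.13, 95% interval -0.31 to 0.23, adjusted p = 0.894). The difference between the 2 hairpin effects was 0.58 (SE 0.19, 95% interval 0.19 to 0.97) with an unadjusted p of 0.00434 and an adjusted p of 0.205, so it did not pass the test over all genes. Without s29, s30, s32 and s33 it was 0.78 with an adjusted p of 0.056. The fall in L-G6pc+/+ livers is therefore not shown to differ from the effect in L-G6pc-/- livers.

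Other measures also differed between WTp and WT. Malat1, a nuclear RNA, had a mean of 4619 ± 568 CPM in WT and 3953 ± 774 in WTp (SD, n = 8 each), and mitochondrial transcripts took 5.96 ± 0.636% and 6.77 ± 0.608% of counts. Summed hepatocyte markers ran from 34715 to 40956 CPM in WT (mean 38692) and from 29481 to 42482 in WTp (mean 33374), with 6 of 8 WTp libraries below the lowest WT library. Summed macrophage markers ran from 989 to 1723 CPM in WT and from 946 to 2716 in WTp. Summed neutrophil markers ran from 42.8 to 117 CPM in WT and from 39.8 to 240 in WTp. Of the marker lists only the endothelial list had a called gene (1 of 8 higher, against 2.16% of all tested genes). Without s9 and s13, of which s13 had the highest macrophage and neutrophil sums, the log2 fold change of Rpl4 was -0.69 with an adjusted p of 0.012. The part of these measures in the level of Rpl4 was not otherwise tested.

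Some other members of large values in WTp against WT did not pass the test. Rpl13a, which in other cells also has a part in silencing inflammatory messages, had 122, 151 and 209 CPM in WT and 97.3, 124 and 145 in WTp, lower at the median with an overlap (log2 fold change -0.40, SE 0.15, adjusted p = 0.0997). Rps19, the first gene found mutated in Diamond-Blackfan anaemia, had 194, 240 and 279 CPM in WT and 119, 190 and 247 in WTp (log2 fold change -0.37, SE 0.15, adjusted p = 0.128). For Rps19 the difference of the hairpin effects was 0.45 (SE 0.21, adjusted p = 0.366). Rpl35 had the largest value in the other direction, 0.61 (SE 0.36, adjusted p = 0.337), from 1.36 to 5.81 CPM in WT and 1.55 to 11.4 in WTp, and it had a median of 10 counts a library. Rpl35, Rpl22l1 and Rpl7l1 overlap genes on the opposite strand, and whether the counting kept those reads apart is not stated in the sources used here. Rpl13a overlaps another gene on its own strand, and reads of that stretch cannot be told apart.

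**Figure D3:**
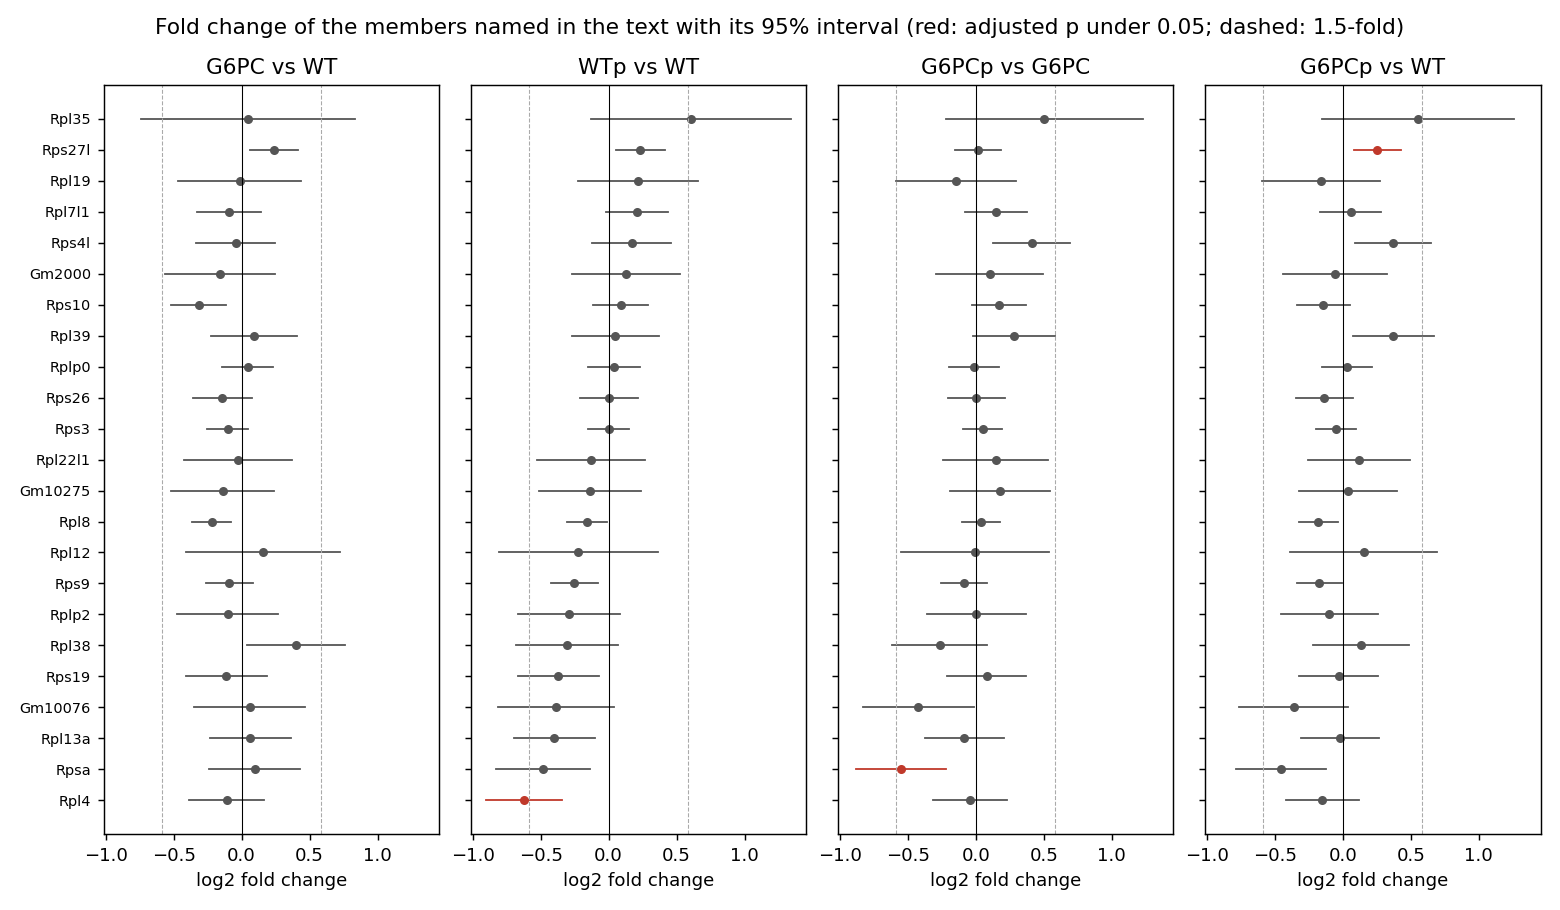
Log2 fold change, with 95% intervals, of 23 of the 39 tested members in 4 comparisons. Members are sorted by WTp against WT and red where the adjusted p is under 0.05. All 23 are named in the text, which also names Rpl7, Rpl22 and Rpl41, not shown here. Rpl4 (-0.62) is red in WTp against WT, Rpsa (-0.55) in G6PCp against G6PC and Rps27l (0.26) in G6PCp against WT, and nothing else is red in these 4 comparisons.

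For G6PCp against G6PC, the comparison of the hairpin within L-G6pc-/- livers, 1 of 39 members was lower and none was higher, where 4.23% of all tested genes were lower and 3.33% higher. The member that fell was Rpsa, a small subunit protein whose product is also known as the laminin receptor precursor. The median log2 fold change of the members was 0.02 (all genes 0.01). An unadjusted p under 0.05 was found for 4 of 39 members and 22.3% of all genes. DESeq2 called Rps4l higher and limma-voom called no member higher. Both called Rpsa lower (adjusted p = 0.0186 by DESeq2 and 0.0183 by limma-voom).

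Rpsa had 13.9, 18.3 and 25.7 CPM in G6PC and 8.44, 12.6 and 18.6 in G6PCp. Most G6PCp libraries were below the lowest G6PC library, but s30, s31 and s33 were not. The log2 fold change was -0.55 (SE 0.16, 95% interval -0.88 to -0.22, adjusted p = 0.0316), or 0.683 of the G6PC level. The call ended without s29, s30, s32 and s33 (-0.66, adjusted p = 0.101), without any one of the G6PC libraries s20, s22 and s23 or the G6PCp libraries s26, s28 and s29 (-0.54 to -0.47, adjusted p 0.0503 to 0.0894), and with library size as the only scaling, without the filter on low counts, or with the 2 compared groups alone.

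In L-G6pc+/+ livers the values of Rpsa lay in the same direction without passing the test. WT had 15.6, 17.8 and 19.1 CPM and WTp 8.75, 11.7 and 21.4, with 7 of 8 WTp libraries below every WT library and 1, s12, above them all (log2 fold change -0.48, SE 0.17, adjusted p = 0.0879). Without s12 it was -0.62 with an adjusted p of 0.0208. The difference of the hairpin effects was -0.07 (SE 0.24, 95% interval -0.55 to 0.41). Rpsa had 17 to 66 counts a library, so counting error adds to its spread. Like Rpl4, it holds snoRNA genes on its own strand.

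In this comparison the hepatocyte markers moved with the groups. Of 8 hepatocyte markers 5 were lower in G6PCp, including Alb and Ttr, and their sum ran from 23906 to 34196 CPM in G6PC and from 15717 to 29246 in G6PCp. Of 10 macrophage markers 3 were higher, C1qa, Clec4f and C1qc, with sums from 939 to 2243 and from 1495 to 2357 CPM. Of 8 endothelial markers 1 was higher. Beside these counts, 4.23% of all tested genes were lower and 3.33% higher. The part of these shifts in the level of Rpsa was not tested.

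Rps4l is named as a paralog of the small subunit protein Rps4x, but GENCODE M21 annotates it as a transcribed processed pseudogene. It had 92.2, 138 and 151 CPM in G6PC and 121, 162 and 215 in G6PCp, higher at the median (log2 fold change 0.41, SE 0.14, adjusted p = 0.06). Of the G6PCp libraries, only s27 (146 CPM) and s28 (121 CPM) were not above every G6PC library. Rps4l passed the test by DESeq2 (adjusted p = 0.0474), with the 2 compared groups alone (0.0447), with library size as the only scaling (0.0147), without the WT library s8 (0.0222) and without s28 (0.0340). Rps4l overlaps Tmtc1 on the opposite strand. The strand setting of the counting is not stated in the sources used here, so it is not known whether their reads were kept apart. Gm10076, the locus listed as Rpl41, had a log2 fold change of -0.42 (SE 0.20, adjusted p = 0.212) and Rpl35 one of 0.51 (SE 0.36, adjusted p = 0.428).

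The test of whether the hairpin acted differently in the 2 genotypes, the difference of its effects, called 0 of 39 members in either direction by edgeR, DESeq2 and limma-voom. All genes were called higher in 0.0589% and lower in 0.0196%. An unadjusted p under 0.05 was found for 2 members, Rpl4 and Rps19, and for 12% of all genes. The median of the members was 0.10 (all genes -0.01), with 26 members above 0 and 13 below.

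G6PCp against WT set both interventions against neither. Of the 39 members 1 was higher and none was lower, where 6.87% of all tested genes were higher and 6.37% lower. An unadjusted p under 0.05 was found for 6 members and 25.4% of all genes. The median was -0.03 for the members and 0.01 for all genes. DESeq2 called Rpl8 and Rpsa lower, and limma-voom called Rpsa lower. Both also called Rps27l higher (adjusted p = 0.0222 by DESeq2 and 0.0357 by limma-voom).

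The member that rose was Rps27l, a paralog of Rps27 whose gene is a known target of p53. It had 86.5, 105 and 119 CPM in WT and 106, 127 and 140 in G6PCp, where 6 of 9 libraries were above every WT library and the others overlapped. The log2 fold change was 0.26 (SE 0.09, 95% interval 0.08 to 0.43, adjusted p = 0.0397), or 1.19 times the WT level. The call was near the threshold: it ended without s29, s30, s32 and s33 (0.30, adjusted p = 0.0953), with TMM factors made without ribosomal protein genes, without the filter, with limma on the deposited table, and without any one of 14 libraries (0.22 to 0.26, adjusted p up to 0.0954). These were s1, s2, s3, s5, s6 and s8 of WT, s20 of G6PC, and s25 to s28 and s30 to s32 of G6PCp.

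Rps27l was above its WT level at the median in the other groups too. It had 98.4, 123 and 151 CPM in WTp and 111, 120 and 143 in G6PC, and in each of these groups 5 of 8 libraries were above every WT library. The log2 fold changes against WT were 0.23 (SE 0.09, adjusted p = 0.106) for WTp and 0.24 (SE 0.09, adjusted p = 0.151) for G6PC, which share the WT libraries with G6PCp against WT. Between G6PCp and G6PC the difference was 0.02 (SE 0.09, adjusted p = 0.936). The exact permutation test on log2 CPM, two-sided and adjusted over 12 tests, gave an adjusted p of 0.0170 for G6PC against WT, 0.0908 for WTp against WT, 0.867 for G6PCp against G6PC and 0.0170 for G6PCp against WT. Rps27l was chosen for this test with earlier results of these data known, and the adjustment does not cover all genes. Over all genes, no other setting of edgeR, DESeq2 or limma called it in G6PC against WT (adjusted p 0.102 to 0.446). Without s9 and s13, edgeR called Rps27l higher in WTp against WT (0.31, adjusted p = 0.0414).

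Hepatocyte and macrophage markers moved with G6PCp against WT as well. Of 8 hepatocyte markers 6 were lower, with sums of 34715 to 40956 CPM in WT and 15717 to 29246 in G6PCp. Of 10 macrophage markers 3 were higher, with sums of 989 to 1723 CPM in WT and 1495 to 2357 in G6PCp. The cholangiocyte list had 1 higher gene, Spp1, of 2 tested. Beside these counts, 6.37% of all tested genes were lower and 6.87% higher. The part of these shifts in the level of Rps27l was not tested.

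The other members named as paralogs of a main ribosomal protein were not called in any of the 5 comparisons. Rpl22l1, which can take the place of Rpl22, had a median of 22.4 CPM in WT, 18.96 in WTp, 20.98 in G6PC and 21.4 in G6PCp, with wide and overlapping ranges. Rpl7l1, a relative of Rpl7 with a part in ribosome assembly, had 47.9, 51.9 and 60.5 CPM in WT, 44.5, 60.8 and 85.0 in WTp, 39.3, 50.3 and 58.1 in G6PC, and 44.9, 54.5 and 71.0 in G6PCp. Its highest libraries were in WTp, and its log2 fold change of WTp against WT was 0.21. Rps4l in WT ran from 62.3 to 160 CPM with a median of 138, and its log2 fold change of G6PCp against WT was 0.37 (SE 0.14, adjusted p = 0.0731, and 0.0417 without s28).

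Of the remaining members, Rpl39 lines the exit of the peptide tunnel. It had 9.51, 16.2 and 18.6 CPM in WT and 14.9, 20.99 and 22.9 in G6PCp, higher at the median with an overlap (log2 fold change 0.37, SE 0.15, adjusted p = 0.0935). Rpsa, had a log2 fold change of -0.45 in G6PCp against WT (SE 0.16, adjusted p = 0.0586), which DESeq2, limma-voom and the fits without s12, s31 or s33 called lower. Rpl8 had 393, 457 and 483 CPM in G6PCp, where WT had 446 to 571 (log2 fold change -0.18, SE 0.07, adjusted p = 0.0863). Rps9 had a mean of 197.5 ± 18.97 CPM in WT and 166 ± 20.2 in WTp (SD, n = 8 each), with a log2 fold change of -0.25 (SE 0.08, adjusted p = 0.0687, and 0.0475 without s9 or 0.0493 without s10).

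**Figure D4:**
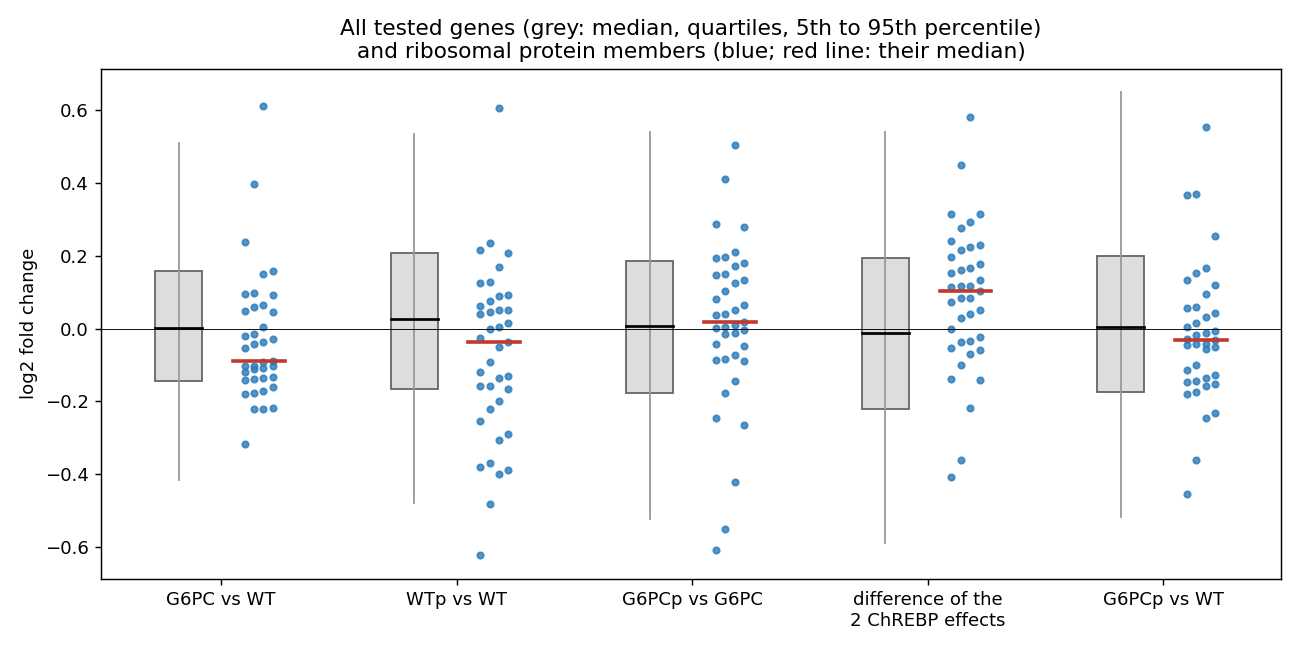
Log2 fold changes of the 39 tested members (blue points, red line at their median) beside all 10179 tested genes (grey box, median and quartiles, whiskers from the 5th to the 95th percentile) in 5 comparisons. The members' medians lie between -0.09 and 0.10, and in WTp against WT the lowest member is Rpl4 (-0.62) and the highest Rpl35 (0.61).

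The intervals show how far a change could be seen in single members. In G6PC against WT 33 of 39 members had a 95% interval that lay within 1.5-fold in either direction, which held for 59.3% of all genes. The counts were 26 in WTp against WT (54.3% of all genes), 29 in G6PCp against G6PC (56.1%), 19 for the difference of the hairpin effects (33.1%) and 29 in G6PCp against WT (55.8%). For those members a change of 1.5-fold lay outside the interval, and for the others the libraries did not settle it.

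Members with and without a TOP tract at the annotated start had like medians. In G6PC against WT the median log2 fold change was -0.02 for 16 members with a tract and -0.09 for 13 without, and in WTp against WT it was -0.04 and 0.00. In G6PCp against G6PC it was 0.00 and 0.01. Rpl4 and Rpsa had no tract and Rps27l had a short one. Members whose 3′ ends were at least 90% unique (14 tested) and those under 50% (18 tested) had medians of -0.10 and -0.02 in G6PC against WT and -0.01 and -0.08 in WTp against WT.

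Within groups the coefficient of variation of the members ran from 7.28% for Rpl8 to 53.6% for Rpl35, with a median of 20.6% against 23.9% for all tested genes. Rps3, at a mean of 657 CPM, had 7.52%. Rplp0 had 11.7%, the 7th lowest of the 39, and 3.998% of all tested genes had a lower value. Of 1304 genes whose mean was within 1.5-fold of that of Rplp0, 12.5% had a lower coefficient of variation and the median was 15.98%.

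**Figure D5:**
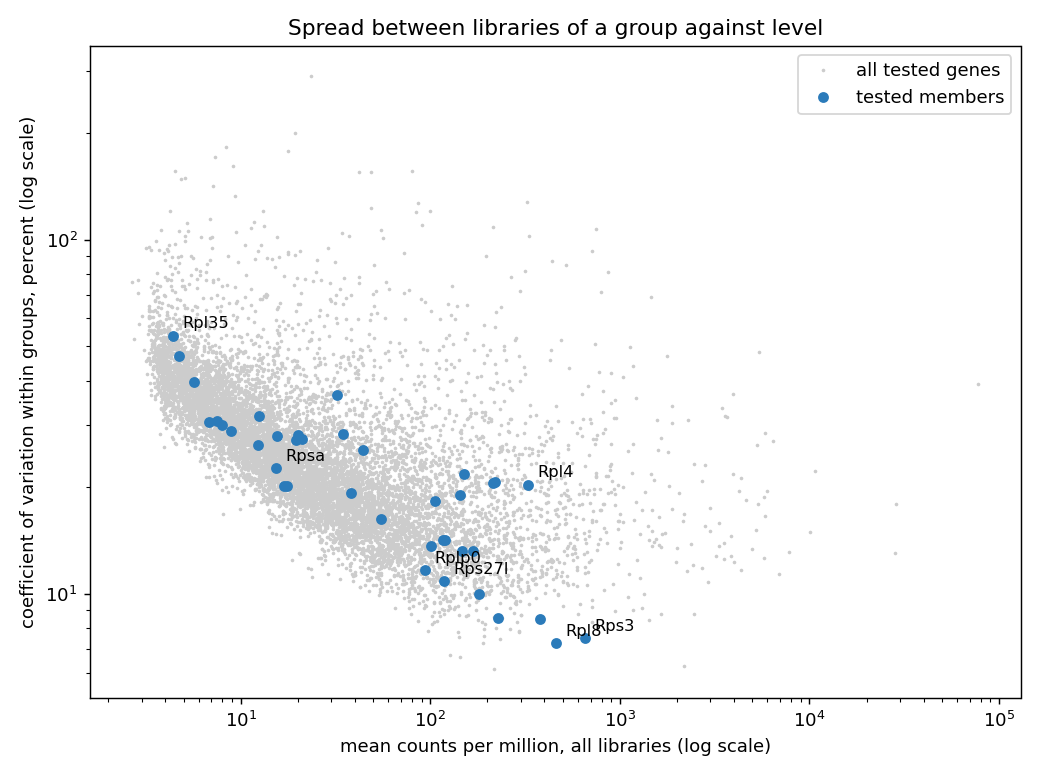
Coefficient of variation within groups (percent, log axis) against mean level (CPM, log axis) for all tested genes and for the 39 members. Rplp0 lies at 94.0 CPM and 11.7%, Rpl8 is the lowest member at 7.28% and Rpl35 the highest at 53.6%.

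The 23 tested ribosomal protein rows with joined names gave 2 calls over the 5 comparisons. Rpl17 of the large subunit was lower in WTp against WT (log2 fold change -0.54, adjusted p = 0.0464), where 3.23% of all tested genes were lower. Rps21 of the small subunit was lower in G6PCp against WT (-0.25, adjusted p = 0.0405), where 6.37% of all tested genes were lower.

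Genes that build and serve the ribosome were read from other lists, which were not tested as sets. Of all tested genes, 2.2% were higher and 1.03% lower in G6PC against WT, and 2.16% and 3.23% in WTp against WT. The shares were 3.33% and 4.23% in G6PCp against G6PC, and 6.87% and 6.37% in G6PCp against WT. Counts of every list below stand beside these shares. Of 103 tested genes of ribosomal RNA synthesis and ribosome assembly, 1 was higher and 2 were lower in G6PC against WT, none higher and 4 lower in WTp against WT, 2 higher and none lower in G6PCp against G6PC, and 3 higher and 2 lower in G6PCp against WT. Ddx10, a helicase of the small subunit processome, fell in WTp against WT (-0.65, adjusted p = 0.00426) from a mean of 79.4 to 50.5 CPM, and Utp20, of the same complex, rose in G6PC against WT (0.76, adjusted p = 0.00222) from 26.7 to 45.4 CPM. The list medians lay between -0.08 and 0.15 in these 4 comparisons. No gene of any list was called for the difference of the hairpin effects.

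Among 41 tested initiation factors none was called in G6PC against WT or G6PCp against G6PC, 2 were lower in WTp against WT (Eif4e, the cap-binding protein, -0.42, adjusted p = 0.0479, and Eif3j2, -0.66, adjusted p = 0.00894), and 1 was higher and 3 lower in G6PCp against WT. The higher one was Eif6, which keeps the subunits apart (0.53, adjusted p = 0.00604). Among 15 elongation and termination factors Eef1a1, which brings aminoacyl-tRNA to the ribosome and has a TOP message, was higher in G6PC against WT (0.48, adjusted p = 0.0494) and lower in G6PCp against G6PC (-0.44, adjusted p = 0.0354), 2 comparisons that share the G6PC libraries. Its group means were 82.3 CPM in WT, 110 in WTp, 114 in G6PC and 84.1 in G6PCp. Eef2k, the kinase of Eef2, was also lower in G6PCp against G6PC, and Eef1d was lower in WTp against WT. In G6PCp against WT, Eefsec was higher and Eef2 lower.

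Of 22 other TOP messages and snoRNA host genes, 1 was lower in WTp against WT (Naca), 1 was higher and 1 lower in G6PCp against G6PC (Cct7 and Nap1l1), and 2 were higher in G6PCp against WT (Snhg15 and Cct7). The 2 calls of Cct7 share the G6PCp libraries. Of 41 genes of mTORC1 and translation control, 2 were higher in G6PC against WT, Mtor itself among them (0.51, adjusted p = 0.0342). In WTp against WT 1 was higher and 1 lower, and in G6PCp against G6PC also 1 and 1. In G6PCp against WT 3 were higher and 2 lower, with Sesn2, an inhibitor of mTORC1 upstream signalling, higher (1.21, adjusted p = 6.5e-05) and Larp1, which binds TOP messages, lower (-0.36, adjusted p = 0.00431). Mean CPM of Larp1 was 93.5 in WT and 72.9 in G6PCp.

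Of 25 tested genes of RNA polymerase I and III transcription, 1 was lower in G6PC against WT, 1 higher in WTp against WT, 1 higher in G6PCp against G6PC and 2 lower in G6PCp against WT. Polr3d, a subunit of RNA polymerase III, was the lower one in G6PC against WT (-0.71, adjusted p = 0.040) and the higher one in G6PCp against G6PC (0.86, adjusted p = 0.0046). These 2 comparisons share the G6PC libraries. Of 20 nascent chain and targeting factors, 2 were lower in WTp against WT (Sec61a1, the channel of the endoplasmic reticulum, -0.56, adjusted p = 0.00122, and Naca) and 1 in G6PCp against G6PC. Of 72 mitochondrial ribosomal proteins none was called in G6PC against WT, 3 were lower in WTp against WT, 2 were lower in G6PCp against G6PC, and 1 was higher and 3 lower in G6PCp against WT. Mrpl11 was lower in each of the last 3 comparisons, of which G6PCp against WT shares libraries with both others. The median of this list was -0.09 in WTp against WT.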

How the data were processed

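RNA from 33 whole-liver samples was made into 3′ libraries (QuantSeq) and read as single 50-base reads. As the methods of the study and the submitters' processing notes state, the authors aligned with HISAT to the Ensembl release of GRCm38 that the methods name, counted with HTSeq and normalized with limma-voom. Tool versions and the strand setting are not given in the sources used here. The deposited count table holds counts of 25988 genes, and the deposited normalized table holds linear signal, the count plus an offset divided by a number for each library. It gave the gene names and, on the log2 scale, an alternative test, since its values were linear and not the log2 values assumed at first.

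Counts of 10179 genes that passed filterByExpr (minimum count 10, minimum total 15) were fitted once over all 33 libraries with TMM factors in edgeR 4.0.16 (R 4.3.3), with no covariate, and glmQLFTest with Benjamini-Hochberg adjustment called genes at 0.05. DESeq2 1.42.0 and limma 3.58.1 were alternatives. The tests were tested on simulated data. Group comparisons of Rplp0, Rpl22l1 and Rps27l on log2 CPM with a prior count of 2 used exact permutation tests. Members and gene lists were chosen with earlier results of these data known. Members described singly were Rplp0, the paralogs, Rpl5 and Rpl11, those called, up to 3 uncalled with the largest fold change in each comparison, and those with the largest and smallest spread. From each other list up to 4 called genes by smallest p were eligible. Rplp2, Rps3 and Rps9 were added after their values were seen. Some members the rule would name are not reported here singly, though counts and medians over the members include them. Names came from GENCODE M21 for 25817 of 25988 genes, and starts from RefSeq (GRCm38.p6). The 120 pairs of libraries within groups held 0 identical pairs, and each differed beyond counting noise (chi-square per degree of freedom 4.27 to 21.3).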

Additional observations from a re-analysis of the deposited data

Results flagged for a closer look

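Among the WT libraries s8 stood apart for Rps4l, with 62.3 CPM where the next lowest library had 129 and the highest 160. Its gap to the next library was 0.680 of the range of the 8 libraries. Among the G6PCp libraries s29 stood apart for Rplp0, with 116 CPM where the next highest had 99.0 and the lowest 82.9, a gap of 0.518 of the range of 9 libraries. These were 2 of 68 sets of values examined (17 measures in 4 groups), and chance sets apart about 1 in 20 such sets.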

How the results depend on the processing

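No paired analysis was possible because the library numbers run through all groups and no number recurs in another. The fit of 2 groups alone cannot give the difference of the hairpin effects. The tests of single genes by exact permutation were repeated under other settings chosen after seeing the data. Depth limits members such as Rpl35 and Rpsa, with medians of 10 and 34 counts a library.

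The counts of members below have no share of all genes beside them, since such shares are given only for the main edgeR fit. Whether a setting called more genes of every kind can therefore not be read from these counts. DESeq2 called 2 members lower in G6PC against WT, 2 lower in WTp against WT, 1 higher in G6PCp against G6PC and 2 lower in G6PCp against WT. It also made the edgeR calls of Rpsa lower in G6PCp against G6PC and of Rps27l higher in G6PCp against WT. Library size alone as scaling moved the median of all genes by 0.11 in G6PCp against G6PC and by 0.10 for the difference of the hairpin effects. With it the members' medians became 0.12 in G6PCp against G6PC, 0.20 for the difference and 0.045 in G6PCp against WT, Rplp0 became 0.095 in G6PCp against G6PC and 0.052 for the difference, and Rpl7l1 became 0.050 for the difference. It also gave 2 members higher and 0 lower in G6PCp against G6PC, 3 higher in G6PCp against WT, and 1 exact test past the threshold where 2 passed with TMM. Members lower in G6PCp against G6PC numbered 0 without the filter, with the 2 groups alone (where 1 was higher) and without s29, s30, s32 and s33. Members higher in G6PCp against WT numbered 0 with TMM factors made without ribosomal protein genes, without the filter, with limma on the deposited table and without s29, s30, s32 and s33. Members lower there numbered 1 with those TMM factors, limma-voom, limma on the deposited table and the 2 groups alone. Without s9 and s13, 1 member was higher in WTp against WT. Without s29, s30, s32 and s33, Rplp0 was -0.052 in G6PCp against WT, and Rpl7l1 was -0.027 in G6PCp against G6PC and -0.12 in G6PCp against WT. The cause of these changes was not tested.

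Leaving out each library in turn gave 0 to 1 members lower in G6PC against WT, 1 to 2 lower in WTp against WT, 0 to 1 higher and 0 to 2 lower in G6PCp against G6PC, and 0 to 1 higher and 0 to 1 lower in G6PCp against WT. Rplp0 then ran from -0.0055 to 0.092 in G6PC against WT, from -0.015 to 0.088 in WTp against WT, from -0.056 to 0.0083 in G6PCp against G6PC, from -0.10 to 0.00073 for the difference and from -0.020 to 0.080 in G6PCp against WT. In G6PC against WT, Rpl22l1 ran from -0.10 to 0.061 and Rps4l from -0.15 to 0.015. In G6PCp against G6PC, Rps27l ran from -0.011 to 0.050. Rpl7l1 ran from -0.11 to 0.023 for the difference and from -0.0030 to 0.086 in G6PCp against WT.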
